A study of Mus musculus with 2 samples.

Results

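The AP-1 genes *Fos*, *Fosb*, *Fosl1*, *Fosl2*, *Jun*, *Junb*, *Jund* and *Atf3* were examined in RNA-seq libraries from testes of 9-day-old mice. These 8 genes were chosen by symbol, with earlier results of these data known, out of 39695 gene entries, and each of the 8 symbols matched an entry through its Ensembl identifier in GENCODE M21. The control library came from *Bcas2F/-* males, in which 1 *Bcas2* allele is floxed, the other is deleted, and no Cre is present. The other library came from *Bcas2F/-;Vasa-Cre* males, in which Cre driven by *Vasa* is meant to remove the floxed allele in germ cells. The somatic cells are meant to keep the *Bcas2* genotype of the control, but they carry the Cre transgene, which the control lacks. Effects of *Bcas2* loss and of Cre therefore cannot be told apart. The labels give C57BL/6 as the strain of both, whereas the study's methods describe a mixed genetic background. There was 1 library for each genotype, and the sources used here do not give how many mice each held. No difference therefore has a replicate check, no p-value is given, and every interval covers counting error only.

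AP-1 is a transcription factor made of a pair of basic leucine zipper proteins. FOS proteins pair with JUN proteins and do not pair with themselves, whereas JUN proteins can do both, and ATF3 is a related protein that pairs with JUN and often represses. *Fos*, *Fosb*, *Jun*, *Junb* and *Atf3* are classical early response genes. Such genes are induced within minutes by growth factors, stress or tissue handling and make short-lived transcripts. In the testis, AP-1 proteins have been described in Sertoli, Leydig and germ cells, and bulk RNA does not tell these sources apart. In these whole testes, fewer cells of a type and less RNA per cell cannot be told apart either.

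The values are RPKM, the reads counted on a gene per kilobase of its length and per 1000000 counted reads. The library sizes behind them were 19918750 reads for the control and 19331687 reads for *Bcas2F/-;Vasa-Cre*, and the reads of each gene were recovered from its RPKM. *Bcas2*, the targeted gene, stood at 39.5 RPKM in the control and 25.7 RPKM in the *Bcas2F/-;Vasa-Cre* library, from 1410 and 888 reads, and was thus still present at 64.9% of control. Testis markers were well covered. The summed RPKM of 11 spermatogonia markers was 796 in the control and 617 in the *Bcas2F/-;Vasa-Cre* library, that of 8 Sertoli markers 985 and 1092, and that of 6 Leydig markers 387 and 431. The Sertoli marker *Rhox5* was listed at 0 in both libraries.

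Among the AP-1 genes, *Fosb*, *Atf3* and *Fos* were lower by more than 1.5-fold in *Bcas2F/-;Vasa-Cre* testes and none was higher by that much. The other 5 genes, including all *Jun* genes, lay within 1.5-fold. *Fosb* stood apart from the family, with almost no transcript left in the *Bcas2F/-;Vasa-Cre* library. Changes were computed as the log2 ratio of RPKM + 1, *Bcas2F/-;Vasa-Cre* over control, and the threshold of 1.5-fold was 0.585 on this scale. Of the 14831 genes whose mean RPKM reached 1, 1.69% were lower and 1.57% were higher at this threshold (3.26% in either direction), beside 3 and 0 of the 8 AP-1 genes. Past 2-fold, 0.378% of all genes were lower and 0.425% higher, beside *Fosb* alone in the family. The same 3 AP-1 genes were lower when the counting interval also had to lie below 0, a rule that 1.25% of all genes met, and none was higher by the matching rule, which 0.647% met. All 8 passed the filter on mean RPKM, *Fosb* only through its control level. Since the genes were chosen with these values known, their count is a description and was not tested. Their median log2 ratio was −0.13, beside 0.015 for all genes passing the filter.

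**Figure D1:**
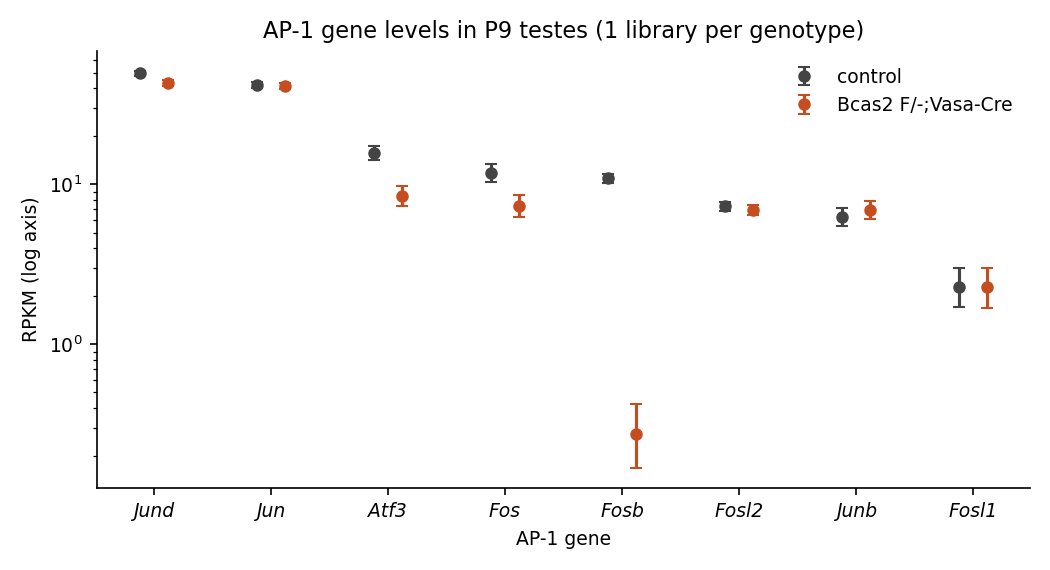
RPKM of the 8 AP-1 genes on a log axis, in the control (grey) and the *Bcas2F/-;Vasa-Cre* library (orange), ordered by the control level. Points are the deposited value of the single library and bars are 95% exact Poisson intervals of the recovered reads. *Fosb* goes from 10.9 to 0.276 RPKM, whereas *Jun* stays at 41.9 and 41.1 RPKM.

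The order of the levels differed between the libraries mainly through *Fosb*. In the control, the RPKM ran from *Jund* and *Jun* through *Atf3*, *Fos*, *Fosb*, *Fosl2* and *Junb* down to *Fosl1*. There, the Poisson intervals of the neighbours *Fos* and *Fosb*, and of *Fosl2* and *Junb*, overlapped, and all other neighbours were apart. In the *Bcas2F/-;Vasa-Cre* library the order was *Jund*, *Jun*, *Atf3*, *Fos*, *Fosl2*, *Junb*, *Fosl1* and last *Fosb*. *Jund* and *Jun* overlapped there, as did each neighbouring pair from *Atf3* to *Junb*, while *Fosb* lay below *Fosl1* without overlap. *Fosb* thus moved from place 5 to place 8 of the family.

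The 250 bases before the RefSeq start of the 3 genes that were lower are given here, with *Jun* for contrast, so that the sites named below can be seen in place. Capitals mark the letters TGACG or TGACGT, the core of the cyclic AMP response element, and in *Jun* the AP-1-like letters TGACATCA, on either strand. TGACG is contained in TGACGT. The sequences are from RefSeq and run 5′ to 3′ toward the start.
Fos (GRCm38.p6 chr12:85473640-85473889, plus strand): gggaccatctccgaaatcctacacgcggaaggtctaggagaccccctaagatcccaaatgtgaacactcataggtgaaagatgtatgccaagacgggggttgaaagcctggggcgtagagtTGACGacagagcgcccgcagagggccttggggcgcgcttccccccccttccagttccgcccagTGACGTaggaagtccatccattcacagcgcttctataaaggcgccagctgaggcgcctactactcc
Fosb (GRCm38.p6 chr7:19310046-19310295, minus strand): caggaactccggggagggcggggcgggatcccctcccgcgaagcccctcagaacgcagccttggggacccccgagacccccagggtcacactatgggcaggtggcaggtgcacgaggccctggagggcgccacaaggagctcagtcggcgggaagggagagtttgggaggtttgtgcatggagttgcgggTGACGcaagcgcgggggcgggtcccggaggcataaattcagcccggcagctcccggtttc
Atf3 (GRCm38.p6 chr1:191183334-191183583, minus strand): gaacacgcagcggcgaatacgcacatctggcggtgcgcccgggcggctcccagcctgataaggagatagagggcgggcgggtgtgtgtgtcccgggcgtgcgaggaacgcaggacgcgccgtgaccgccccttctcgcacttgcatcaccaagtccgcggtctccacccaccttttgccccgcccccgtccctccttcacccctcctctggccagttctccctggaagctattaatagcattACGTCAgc
Jun (GRCm38.p6 chr4:95052223-95052472, minus strand): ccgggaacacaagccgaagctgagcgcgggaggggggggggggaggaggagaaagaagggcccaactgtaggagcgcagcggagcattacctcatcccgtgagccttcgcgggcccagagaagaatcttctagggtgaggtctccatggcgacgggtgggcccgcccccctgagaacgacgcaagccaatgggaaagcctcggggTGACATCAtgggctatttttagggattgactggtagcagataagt
These motifs were chosen after the sequences had been seen. TGACGT lay at bases −66 to −61 of *Fos* and, on the opposite strand, at −8 to −3 of *Atf3*, counted back from the start. *Fosb* held only the shorter TGACG, at −60 to −56. The RefSeq start of *Atf3* lies inside the M21 gene, which begins further upstream. For *Fosb* the start used was base 19310045, whereas the RefSeq span of this minus-strand gene reaches 19310118. Part of its window, with the TGACG, thus lies inside that span. A promoter was found for 7 of the 8 genes, all but *Fosl1*. TGACG was in 4 of these 7, the 3 lower genes and *Junb*, and in 17.8% of all 32851 promoters of this length. TGACGT was in *Fos* and *Atf3* and in 6.47% of all promoters. Neither the full element TGACGTCA, the AP-1 site TGANTCA nor a CArG box, the site bound by serum response factor, was found in any of the 7 windows. They were in 1.55%, 6.75% and 1.47% of all promoters, respectively. TGACATCA was in *Jun* alone among the 7, at −45 to −38, and in 2.93% of all promoters. A match of letters is not evidence of binding, and the windows do not reach further upstream.

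*Fosb*, the gene of a FOS protein that pairs with JUN proteins, is a minus-strand gene on chromosome 7 (GRCm38, bases 19302696 to 19310051). It had 10.9 RPKM in the control and 0.276 RPKM in the *Bcas2F/-;Vasa-Cre* library, from 816 and 20 reads. The control level was 39.6 times that in *Bcas2F/-;Vasa-Cre* testes, with a 95% counting interval of 25.5 to 65.2. The log2 ratio of RPKM + 1 was −3.22, and only 3 of the 14831 genes, *Fosb* included, were as low. The added 1 RPKM is larger than the level left, so this ratio understates the difference. Without a pseudocount the log2 ratio was −5.31, with an interval of −6.03 to −4.67. Within the control library, *Fosb* and *Fos* were at almost the same level, a ratio of 0.924. In the *Bcas2F/-;Vasa-Cre* library the ratio was 0.0376, so *Fosb* and *Fos* did not keep their proportion.

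*Fos*, the gene of the founding FOS protein, is a plus-strand gene on chromosome 12 (85473890 to 85477273). It had 11.8 RPKM in the control and 7.34 RPKM in the *Bcas2F/-;Vasa-Cre* library, from 257 and 155 reads. The log2 ratio of RPKM + 1 was −0.62, just past the threshold, and 209 of the 14831 genes, *Fos* included, were as low. Without a pseudocount the 95% interval ran from −0.98 to −0.39, so counting error alone would allow a *Fos* difference smaller than 1.5-fold.

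*Atf3*, the stress-induced member, is a minus-strand gene on chromosome 1 (191170296 to 191218039). It had 15.7 RPKM in the control and 8.48 RPKM in the *Bcas2F/-;Vasa-Cre* library, from 390 and 205 reads. The log2 ratio was −0.81, with an interval of −1.14 to −0.64 without a pseudocount, which lay entirely past 1.5-fold. As low were 97 of the 14831 genes, *Atf3* included.

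The other FOS-related genes, *Fosl1* and *Fosl2*, which encode the FRA proteins, were at nearly the same level in both libraries. *Fosl2*, on chromosome 5 from 32135801 to 32157842, had 7.30 RPKM in the control and 6.95 RPKM in the *Bcas2F/-;Vasa-Cre* library, from 851 and 787 reads. Its log2 ratio was −0.06, with an interval of −0.21 to 0.07. *Fosl1*, on chromosome 19 from 5447547 to 5455946, had 2.29 and 2.27 RPKM. These came from 52 and 50 reads, and the log2 ratio was −0.01. The wide interval of *Fosl1*, from −0.60 to 0.57, means that a difference of up to about 1.5-fold in either direction was not detectable at this depth.

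*Jun*, the main partner of FOS, is a minus-strand gene on chromosome 4 (95049034 to 95052222). It had 41.9 RPKM in the control and 41.1 RPKM in the *Bcas2F/-;Vasa-Cre* library, from 2104 and 2000 reads. Its log2 ratio of −0.03 had a narrow interval of −0.12 to 0.06. *Junb*, on chromosome 8 from 84974484 to 84978718, a JUN protein that often restrains *Jun*, had 6.25 and 6.94 RPKM from 229 and 247 reads. Its log2 ratio of 0.13 was the highest of the family, and its interval of −0.11 to 0.42 included 0. *Jund*, on chromosome 8 from 70698949 to 70700616, the most constantly expressed JUN gene, had 49.6 and 42.9 RPKM from 2844 and 2389 reads. Its log2 ratio was −0.20, with an interval of −0.29 to −0.13 that excluded 0 but stayed well within 1.5-fold.

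**Figure D2:**
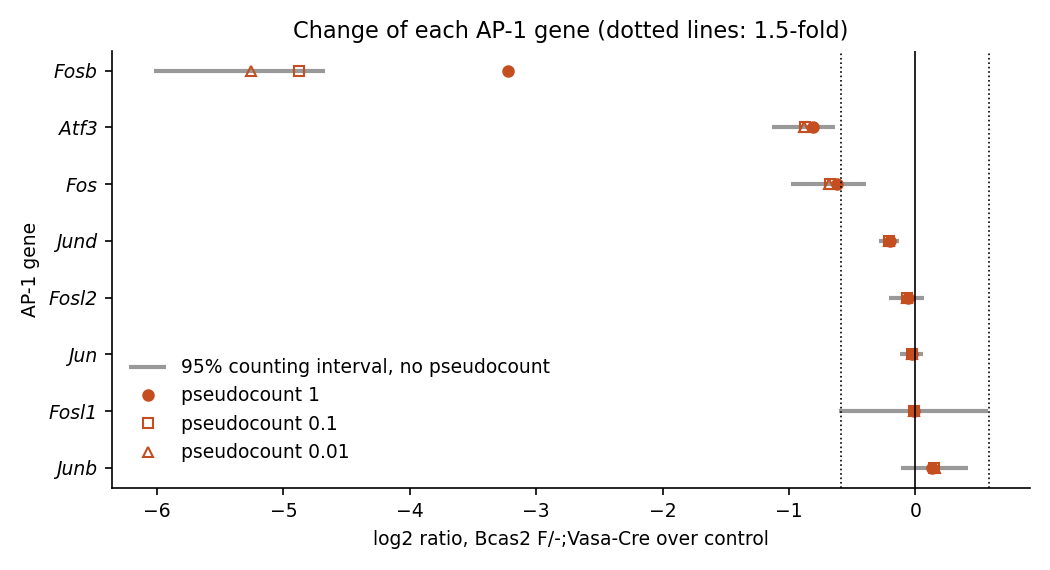
Log2 ratio of each AP-1 gene, *Bcas2F/-;Vasa-Cre* over control, with 3 pseudocounts (symbols) and the 95% counting interval of the RPKM ratio without pseudocount (grey bars); dotted lines mark 1.5-fold. *Fosb* runs from −3.22 to −5.26 with the pseudocount, *Atf3* (−0.81) and *Fos* (−0.62) lie past 1.5-fold, and the other 5 genes lie within it.

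Added up, the 4 FOS genes *Fos*, *Fosb*, *Fosl1* and *Fosl2* had 32.3 RPKM in the control and 16.8 RPKM in the *Bcas2F/-;Vasa-Cre* library, which was 52.1% of control. The 3 JUN genes had 97.8 and 91.0 RPKM, which was 93.0% of control. Without *Fosb*, the other 3 FOS genes were at 77.4% of control, so most of the difference in the FOS sum came from *Fosb*. FOS genes made up 22.2% of the summed RPKM of the 8 genes in the control and 14.5% in the *Bcas2F/-;Vasa-Cre* library. *Jun* was 3.55 times as high as *Fos* in the control library and 5.59 times in the other.

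**Figure D3:**
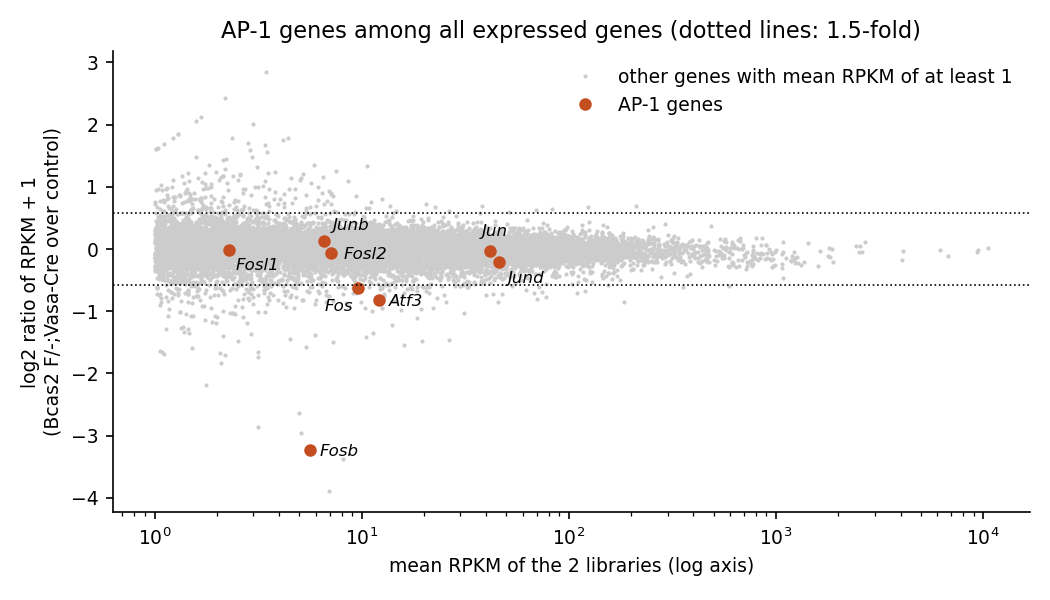
Log2 ratio of RPKM + 1 against mean RPKM (log axis) for all genes whose mean RPKM reached 1 (grey) and the 8 AP-1 genes (orange); dotted lines mark 1.5-fold. *Fosb* lies at −3.22, near the lower end of all genes, *Fos* at −0.62 and *Atf3* at −0.81 lie below the dotted line, and the other 5 lie above it.

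Most of the family had a level between 5 and 20 RPKM on average. Of the 4652 genes at that level, the middle 90% lay between −0.35 and 0.31 on the log2 scale, and *Fos*, *Fosb* and *Atf3* were below this range. *Fosb* was among these genes only through its control level. Protein-coding genes whose mean RPKM reached 5 were also ranked by log2 ratio over the 2 libraries, and 62 of 10219 were at or below *Fos*, among them *Fosb* and *Atf3*. The 10 lowest of these, which lay further from 0 than *Fos* itself, were *Slc4a1*, *Fosb*, *S100a9*, *S100a8*, *Esx1*, *Thbs1*, *Runx3*, *Morc1*, *Smc1b* and *Hbb-bt*, from −3.38 to −1.03. Of these, *Slc4a1*, *Fosb*, *S100a9*, *S100a8*, *Esx1* and *Runx3* reached a mean RPKM of 5 only through their control level. A shared direction over 2 libraries says nothing of shared control.

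BCAS2 is a spliceosome protein, and the AP-1 family holds genes with and without introns. In the coding transcript with the longest reading frame in GENCODE M21, *Fos*, *Fosb* and *Atf3* have 4 exons each, as do *Fosl1* and *Fosl2*, whereas *Jun*, *Junb* and *Jund* have a single exon. The 3 genes past 1.5-fold were among the 5 spliced ones, and the spliced *Fosl1* and *Fosl2* were not past it. Single-exon transcripts make up 2.4% of 13003 expressed protein-coding genes. Of 312 single-exon genes 1.28% were lower by more than 1.5-fold, and of 12691 genes with more exons 1.23%. The pentamer ATTTA, which is common in unstable transcripts, was counted in the 3′ untranslated region of the same transcripts. *Fos* held 4 copies, a density of 4.91 per kilobase, *Atf3* 3 copies, a density of 2.53, and *Fosb* 1 copy, a density of 0.466. The median of expressed protein-coding genes was 1.32 per kilobase. *Jun* and *Junb*, with 3.24 and 4.12 per kilobase, lay between *Atf3* and *Fos*.

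The dimer partners outside the family, other basic leucine zipper genes such as the *Batf* and *Atf* genes, mostly lay within 1.5-fold. Of the 17 listed, 15 passed the filter, 1 was lower by more than 1.5-fold and none was higher, beside 1.69% and 1.57% of all genes. The median log2 ratio was 0.05. The lower gene was *Maff*, a small MAF protein without an activation domain, with 3.95 RPKM in the control and 2.26 RPKM in the *Bcas2F/-;Vasa-Cre* library and a log2 ratio of −0.60.

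The kinases and factors that act on *Fos* and *Jun* lay within 1.5-fold between the libraries. Of 18 such genes, among them the MAP kinases, *Srf* and the *Elk* factors, 18 passed the filter and none was past 1.5-fold in either direction, a count near the 3.26% of all genes. The log2 ratios ran from −0.28 in *Rps6ka1*, a kinase downstream of ERK, to 0.20 in *Mapk9*, a JNK that phosphorylates JUN. RNA levels do not show the activity of these kinases.

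Phosphatases of the *Dusp* family switch MAP kinases off, and some of them, such as *Dusp1*, are themselves early response genes. Of 9 genes, all passing the filter, 2 were lower by more than 1.5-fold and none was higher, beside 1.69% and 1.57% of all genes. *Dusp1* had 11.3 RPKM in the control and 6.97 RPKM in the *Bcas2F/-;Vasa-Cre* library, a log2 ratio of −0.62 that was close to that of *Fos*. *Dusp14* had 8.01 and 4.50 RPKM, a log2 ratio of −0.71. The median of the list was −0.12.

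The other early response genes were on the lower side as a list, but few were past the threshold. Of 25 genes, 22 passed the filter, 2 were lower by more than 1.5-fold and none was higher, where 1.69% and 1.57% of all genes were. *Zfp36*, which encodes a protein that destabilises ATTTA-rich transcripts, had 8.46 RPKM in the control and 4.94 RPKM in the *Bcas2F/-;Vasa-Cre* library, a log2 ratio of −0.67. *Ier3*, a stress-induced survival gene, had 7.95 and 4.94 RPKM, and its log2 ratio of −0.59 barely passed the threshold. The median of the list was −0.16, and 17 of the 22 were below 0, beside 46.3% of all genes passing the filter. *Egr1*, often induced together with *Fos*, had 17.7 and 14.9 RPKM, a log2 ratio of −0.24, and *Nr4a1* had 18.1 and 18.8 RPKM, a log2 ratio of 0.06. These last genes were named after their values had been seen.

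Genes known as AP-1 targets in other tissues mostly lay within 1.5-fold. Of 20 genes, 14 passed the filter, 2 were lower by more than 1.5-fold (1.69% of all genes) and none was higher (1.57%), with a median of −0.06. *Ccnd1*, the cyclin that drives entry into the cell cycle, had 25.8 RPKM in the control and 12.8 RPKM in the *Bcas2F/-;Vasa-Cre* library, a log2 ratio of −0.96. *Mmp13* was listed at 0 in both libraries. Heat shock genes, only some of which are induced by stress or tissue handling, gave 0 of 11 past 1.5-fold, beside 3.26% of all genes. Their log2 ratios lay between −0.21 in *Hsp90aa1* and 0.29 in *Hsph1*, both chaperone genes. Whether handling differed between the libraries was not tested.

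**Figure D4:**
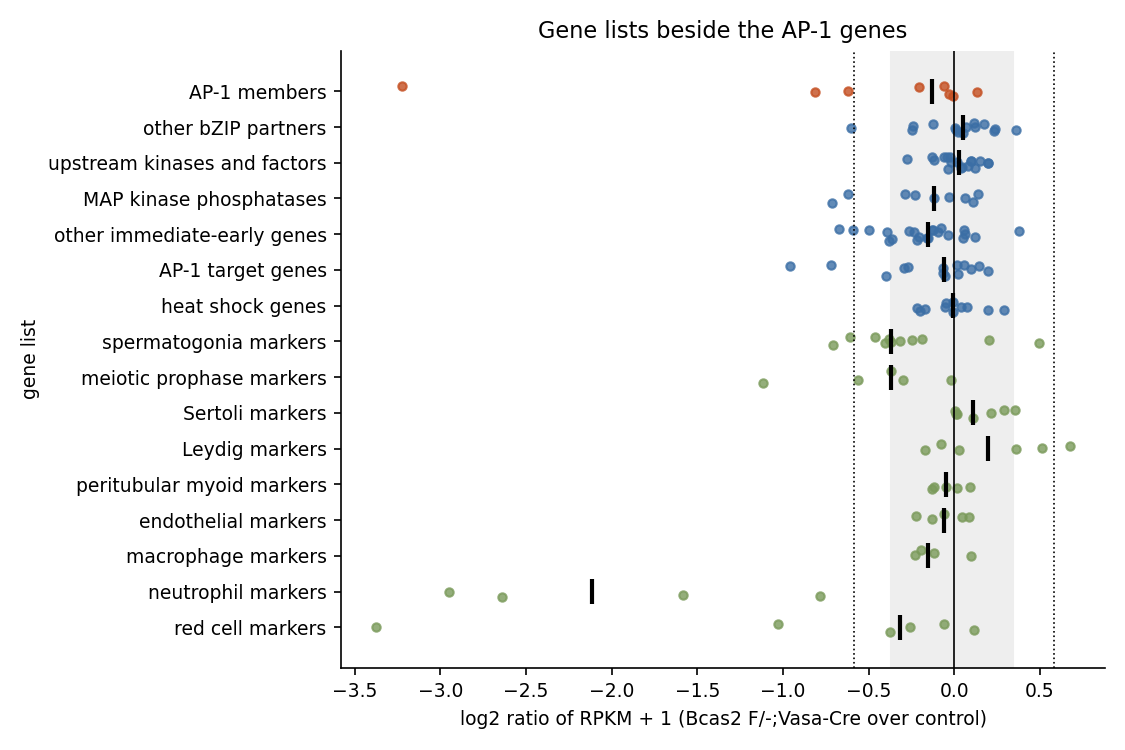
Log2 ratios of RPKM + 1 of the genes passing the filter in the AP-1 family (orange), related gene lists (blue) and cell type markers (green). Each point is a gene and black bars are medians. The grey band holds the middle 90% of all expressed genes (−0.37 to 0.34) and dotted lines mark 1.5-fold. Medians of the AP-1 family and the related lists run from −0.16 to 0.05. Those of the marker sets run from −2.11 in neutrophils, over 4 genes, to 0.20 in Leydig cells, and are −0.37 in spermatogonia and in meiotic prophase.

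Several neutrophil markers were, like *Fosb*, much lower in the *Bcas2F/-;Vasa-Cre* library. The summed RPKM of the 7 neutrophil markers listed was 26.6 in the control and 3.34 in the *Bcas2F/-;Vasa-Cre* library, 12.5% of control. *S100a9*, a neutrophil calcium-binding protein, had 9.83 and 0.401 RPKM, from 101 and 4 reads, and *S100a8* had 9.35 and 0.660 RPKM, from 73 and 5 reads. The 4 markers that passed the filter were lower by more than 1.5-fold, but *S100a8*, *S100a9* and *Ngp* reached it only through their control level. Of the 3 that did not pass, *Ltf* had 27 and 2 reads, *Mpo* 7 and 3 reads and *Elane* 1 and 1 read, so none was listed at 0. Of the 6 red cell markers passing the filter, *Slc4a1* and *Hbb-bt* were lower by more than 1.5-fold and the other 4, among them *Hba-a1* at −0.26 and *Hbb-bs* at 0.11, were within it. *Slc4a1*, the red cell anion exchanger, had 15.7 and 0.607 RPKM and passed the filter only through its control level. The summed RPKM of the 7 listed red cell markers, however, was 981 and 944. The part of these cells in the *Fosb*, *Fos* and *Atf3* values was not tested.

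Markers of the resident cells differed less than *Fosb*. The 11 spermatogonia markers added up to 77.5% of control, with *Stra8* and *Sall4* lower by more than 1.5-fold. In log2 ratio 9 of them were below 0 and 2 above it, *Nanos2* (0.49) and *Sohlh2* (0.20). The study's RT-PCR at P9 used replicate samples, with *Gapdh* as the internal control. It found *Stra8*, *Dazl* and *Kit* mRNA similar in both genotypes and meiotic prophase genes lower. The log2 ratios of *Stra8*, *Dazl* and *Kit* were −0.61, −0.40 and −0.37 here, from 1 library per genotype. The 5 meiotic prophase markers added up to 65.0%, with *Smc1b*, a cohesin subunit, lower. *Fos* was at 62.1%, *Atf3* at 54.2%, *Bcas2* at 64.9% and *Fosb* at 2.53% of control. These are values of single genes, whereas the marker percentages are of sums. The summed markers of macrophages (5 genes, of which 4 passed the filter), endothelial cells (5 genes) and peritubular myoid cells (5 genes) were at 95.4%, 95.4% and 93.5% of control, with no gene past 1.5-fold. The 8 Sertoli and 6 Leydig markers were at 110.9% and 111.3% of control, with 1 gene, *Cyp17a1*, higher by more than 1.5-fold. Which cells held the AP-1 transcripts was not tested.

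Some of the AP-1 values depend on how reads were assigned. *Fosl1* overlaps *Ccdc85b* on the opposite strand over 2767 bases, and *Ccdc85b* had 49.0 and 44.7 RPKM. *Junb* overlaps *Prdx2* over 351 bases and *Jun* overlaps the antisense gene *Junos* over 689 bases. Without strand in the counting, which the sources used here do not state, reads from such pairs cannot be told apart. *Fos* and *Fosb* overlap no other annotated gene. For *Fosb*, *Fosl2*, *Jun*, *Junb* and *Atf3*, a single whole gene length within the annotated exons gave whole reads in both libraries. If the authors' gene lengths need not be whole, as for a mean over transcripts, other reads are possible for *Fosb*, *Jun* and *Atf3*. For *Fosb*, 612 and 15 reads would put the fold between 23.8 and 71.2, and for *Atf3*, 312 and 164 reads would give an interval of −1.17 to −0.61. For *Jund* the length that did, 2878 bases, lies outside the M21 exons but equals its span in RefSeq. For *Fos*, 514 and 310 reads would also give whole numbers, as would 26 and 25 or 78 and 75 reads for *Fosl1*. With these, the interval of *Fos* would run from −0.89 to −0.48, and that of *Fosl1* would be −0.87 to 0.84 or −0.49 to 0.46.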

How the data were processed

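RNA from whole P9 testes was sequenced in 1 library for each genotype. The authors removed adaptors and low-quality reads, aligned read pairs to the mouse genome with TopHat2 (version 2.0.9 and build mm10 in the submitters' processing notes), counted mapped reads with HTSeq, and deposited 1 RPKM value per library for each of 39695 gene entries. The annotation release and gene lengths are not given in the sources used here. RPKM does not adjust for RNA composition. Of the entries, 37606 matched GENCODE M21 by identifier.

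Genes whose mean RPKM reached 1 were compared by the log2 ratio of RPKM + 1. The members, gene lists and named genes (all 8 members, *Bcas2*, in each list those past 1.5-fold or else the 2 largest changes, and the 10 lowest genes) were chosen with earlier results of these data known. Of the genes this rule names, 2 are not reported here. Library sizes were solved from 2478 single-transcript genes, and 1252 of these agreed on one value. Reads were taken at the whole gene length nearest the mean M21 transcript length that gave whole reads in both libraries, within 0.0002 reads plus rounding. This held for 99.93% of 21201 genes, but the reads of a gene can be wrong by a whole factor, and their sums were 101.2% and 101.0% of the library sizes. The 95% intervals are Clopper-Pearson for ratios and exact Poisson for levels. The procedure was tested on simulated data with whole gene lengths, so that test could not check lengths that need not be whole. With 1 library per genotype, no test was run. Alternatives were 2 pseudocounts, 2 scalings, 2 filters, a counting interval and, added after the data were seen, gene lengths that need not be whole. Software was matplotlib 3.10.9, pandas 2.3.3, scipy 1.17.1 and numpy 2.4.6 under Python 3.11.15. Promoters are from RefSeq on GRCm38.p6.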

Additional observations from a re-analysis of the deposited data

How the results depend on the processing

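The 3 lower and 0 higher AP-1 genes at 1.5-fold were counted under every alternative that gave such a count. The log2 ratio of no AP-1 gene past 1.5-fold changed sign. Leaving out the filter could not change the count, since every member passed it. The counting interval had only to exclude 0, and that of *Fos* reached within 1.5-fold. Gene lengths that need not be whole change the reads and intervals but not the RPKM ratios. The log2 ratio of *Fosl1*, near 0, was 0.01 with RPKM rescaled to a sum of 1000000. *Fosb* moved from −3.22 to −4.87 and −5.26 with pseudocounts of 0.1 and 0.01, because the pseudocount of 1 exceeds its level in the *Bcas2F/-;Vasa-Cre* library. The family's median ran from −0.20, with a mean RPKM of at least 5 and without *Fosl1*, to −0.11 with rescaled RPKM. The scalings moved the median of all genes by −0.015 and 0.027.

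Counts over all genes, 251 lower and 233 higher, moved more. With a pseudocount of 0.1 they were 457 and 454, with 0.01 they were 485 and 491, without a filter 468 and 511, and with a mean RPKM of at least 5 they were 104 and 46. Rescaled RPKM gave 434 higher genes and a counting interval that excludes no change gave 96. With a mean RPKM of at least 5, 0 of the basic leucine zipper partners and 1 of the AP-1 targets were lower. *Maff* did not pass that filter. The cause of the other moves was not tested. No paired analysis was possible because each genotype has 1 library, and no replicate could be left out.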

Other observations

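*Junos*, the antisense gene that overlaps *Jun* over 689 bases, had 2.45 RPKM in the control and 4.14 RPKM in the *Bcas2F/-;Vasa-Cre* library. These came from 33 and 54 reads, and the log2 ratio of 0.57 had a counting interval of 0.10 to 1.42. *Jun* itself differed by −0.03, and without strand in the counting, reads from the overlap cannot be assigned to either gene. *Ccn1*, an early response gene of the extracellular matrix, had 18.5 and 12.8 RPKM, a log2 ratio of −0.50, whereas its relative *Ccn2* had 42.4 and 46.2 RPKM, a log2 ratio of 0.12. Among the Leydig markers, *Cyp17a1*, an enzyme of androgen synthesis, had 94.8 and 152 RPKM, a log2 ratio of 0.68. These genes were named after their values had been seen.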
